A study of Homo sapiens with 3 samples.

Results

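The transcripts described here are those of the cytosolic ribosomal proteins, profiled for RBM17 binding with eCLIP in cells of the established line K562, from a chronic myeloid leukemia. RBM17 is a splicing factor, and eCLIP sequences the RNA fragments that ultraviolet light has crosslinked to it, beside a size-matched input, which was taken from the same mixture before the beads were separated and washed and was cut from the same gel region. Members were protein-coding genes with at least 1 cluster in replicate 2 and a name of RPL or RPS with a number. The number could carry 1 suffix letter (A, X or L), and RPLP0, RPLP1, RPLP2, RPSA and FAU were included. Names with a longer suffix, such as RPL36AL, were not counted. This gave 79 of the 82 such genes in the GENCODE v44 annotation, out of 10872 genes with a replicate 2 cluster. The other 3, among them RPL10L and RPL3L, had no replicate 2 cluster and are no members.

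The 2 RBM17 eCLIP replicates came from untreated K562 cells crosslinked at 400 mJ/cm2, with 10 μg of RBM17 antibody per sample, and were compared with 1 input sample, which was 2% of the material. Replicate 1 held 137095 clusters, each with a log2 fold over input and a −log10 p, and no reads, so its depth is unknown. Replicate 2 held 119066 clusters with a read number and a gene but no comparison with the input, 1336569 reads in all. The third list held 866 reproducible peaks with 1 fold and 1 −log10 p for both replicates together. The study calls the replicates biological, but the labels do not say whether they came from separate cultures. A fold over input exists for replicate 1 alone or for both replicates together, and reads for replicate 2 alone, so these values have no replicate error and no test was made. The number of clusters per gene is the quantity that both replicates share. Intervals of shares are 95% Clopper-Pearson limits (exact) and reflect no more than counting error. Those over clusters treat clusters as independent, though many lie in the same gene, so they may be too narrow. All 10 K562 markers looked up had replicate 2 clusters, from 19 reads for KLF1 to 1553 for HBG2. Of the markers of other cells, CD3E and ALB had none, while EPCAM had 11 reads and PTPRC, a general leukocyte marker, 102.

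Each cytosolic ribosome is built from a large subunit, which joins amino acids, and a small subunit, which reads the mRNA. Their proteins are made from short, very abundant mRNAs. Most of these carry a 5′ terminal oligopyrimidine (TOP) tract, a run of C and T bases starting with C at the first base of the mRNA, through which growth signals set their translation. Many of the genes also host small nucleolar RNAs (snoRNAs) in their introns. These are released by splicing and guide the modification of ribosomal RNA.

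The TOP tract is a sequence feature that the choice of members did not use. RefSeq start sites (GRCh38.p14) were found for 64 of the 79 members, and 43 of these (67.2%) began with C followed by an unbroken run of at least 5 pyrimidines in all, counting the C, on the sense strand. The share was 5.97% of the 7424 protein-coding genes with both a replicate 2 cluster and a start site found, and 4.07% of all 35116 start sites in the table. Of the 10 matched members with a reproducible peak, 6 began this way. The 25-base windows below, 10 bases before the start and 15 from it, are those of these 10 genes, with the run of pyrimidines that begins at the start in capitals. RPL7A to RPL41 have the tract at the annotated start, and RPL3 to RPL10A do not have it at that base. A start a few bases away would change this in RPL10A, whose window holds a run of pyrimidines shortly after the start. The window of RPL6 holds no run of 5 pyrimidines that starts with C. The windows are in another build than the clusters, so no cluster was placed on them.
RPL7A: attccctttcCTTTCTCTCTCCTCC
RPS6: gaagttggccCTCTTTTCCgtggcg
RPS3A: cccacttccgCCCTTTTggctctct
RPS13: ctctcgctctCCTTTCgttgcctga
RPS25: gcagcgcttcCTTTTTgtccgacat
RPL41: cttcgcctttCTCTCggccttagcg
RPL3: gccgaccggcCTCTaccggcgggat
RPL6: gtatcctcagTgaatcagaaccaga
RPS26: acataacctcgattttcttccgcca
RPL10A: aagacatgctagtctcttttccggt

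Ribosomal protein transcripts had many reads and mostly low folds over input. In replicate 2 they held 20718 reads, 1.55% of the total, in 824 clusters. The median member had 207 reads and stood at the 90.7th percentile of all genes, whose median was 33 reads. Per 100 bases of cluster the member median was 59.3 reads, against 12 over all genes. These reads are not relative to the input, so RNA abundance and RBM17 binding cannot be told apart in them.

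In replicate 1, 896 clusters lay within the stretch between the first and last replicate 2 cluster of a member, called its span. Of these 513 had a log2 fold below 0 (57.3%, interval 53.9 to 60.5), meaning less signal than the input. Over all genes the share was 11.3% (13351 of 118204 clusters in spans). Member clusters made up 0.758% of the clusters in spans and 3.84% of those below 0. The median of the member medians was −0.39 (exact interval −0.70 to 0.095, 76 members with at least 3 clusters), against 1.39 over the 6439 genes with as many. The median was below 0 in 44 of these 76 members (57.9%), against 7.63% of all such genes. RPL39 with 2 clusters, FAU with 1 and RPL39L with none were left out of the gene medians.

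A minimum of reads changed these shares little. Of the 2379 genes with at least 100 replicate 2 reads, 9.53% had a median below 0 and 12.1% of their clusters were below 0. The 66 members past the same minimum had a median below 0 in 62.1% and 60.2% of their clusters below 0. The match in depth is partial, since these members had a median of 65.2 reads per 100 bases of cluster and the genes 20.0.

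**Figure D1:**
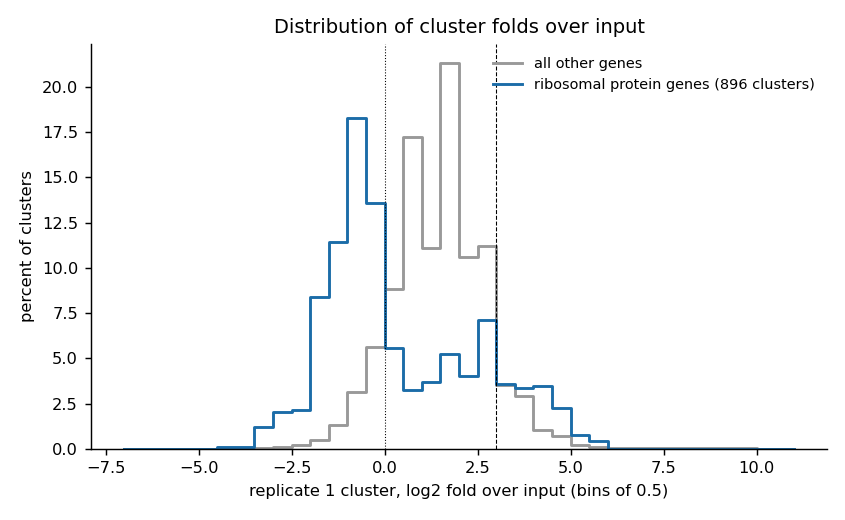
Percent of replicate 1 clusters in bins of 0.5 in the log2 fold over input, for the 896 clusters of ribosomal protein genes (blue) and the clusters in the spans of all other genes (grey). The dotted line marks 0 and the dashed line 3. Most ribosomal protein clusters lie left of 0, whereas the other genes centre between 0 and 3 and the blue line stands above the grey between 3.5 and 6.

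The same transcripts also held strongly enriched clusters. A cluster was counted as past the threshold with a minimum of 3 for both the log2 fold and the −log10 p. This follows the lowest values in the reproducible list, 3.01 and 3.06, and is not the study's own cutoff, which is on the fold and a false discovery rate. By it 111 member clusters passed (12.4%, interval 10.3 to 14.7), against 5.62% over all genes. They lay in 36 members (45.6%, interval 34.3 to 57.2), against 15.7% of all genes. Among genes with at least 100 reads the shares were 50.0% of members and 44.1% of all genes, and the share of members with such a cluster was near that of other deeply read genes. In 35 members (44.3%) a cluster past the threshold and a cluster below 0 occurred in 1 span, against 8.13% of all genes, and among genes with at least 100 reads the values were 48.5% and 28.1%. Just inside the threshold lay RPL9, with a highest fold of 3.05, and just below it RPS9, with one that rounds to 3.

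**Figure D2:**
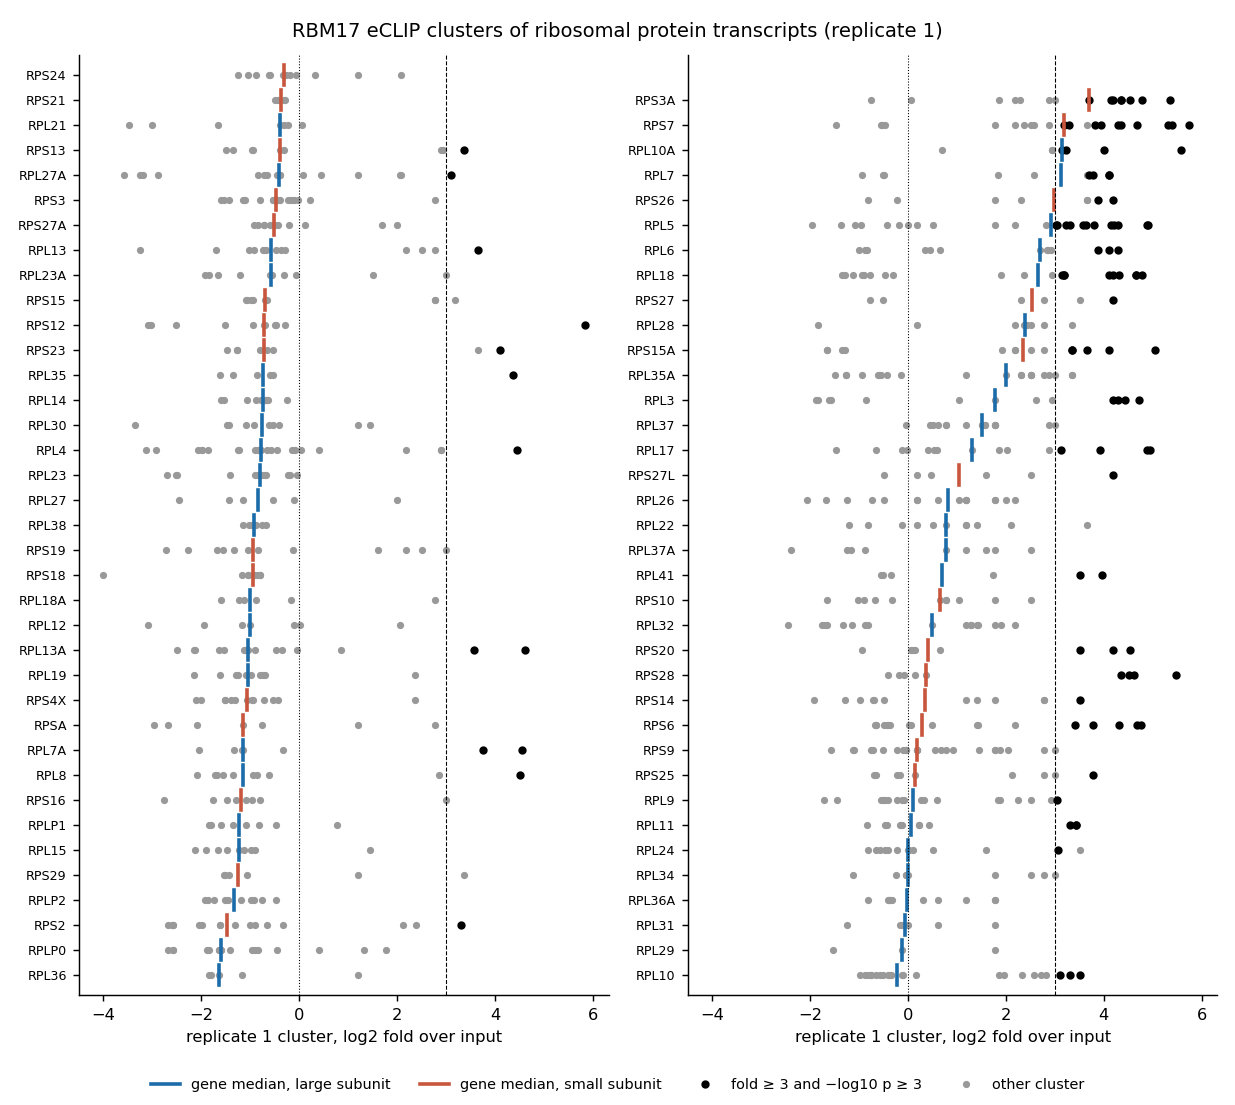
Log2 fold over input of every replicate 1 cluster (points) in each of 73 of the 76 ribosomal protein genes with at least 3 clusters, ordered by the gene median (bar, blue for the large and red for the small subunit). Black points are clusters past the threshold of 3 for both the fold and the −log10 p. Medians run from −1.65 in RPL36 to 3.69 in RPS3A, and black points occur both in genes with low and with high medians.

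Reproducible peaks were found in 12 members (15.2%, interval 8.1 to 25), against 3.94% of all genes. Among genes with at least 100 reads it was 16.7% of members and 16.1% of all genes, a share at the background. These members held 16 peaks, with log2 folds between 3.25 and 5.37 (median 3.86, against 3.80 over all peaks). Among these members RPL10A held 3 peaks and RPL3 held 2, and RPL41, RPL5, RPL6, RPL7A, RPS13, RPS25, RPS26, RPS3A and RPS6 held 1 each. The other 24 members with a cluster past the threshold in replicate 1 had no reproducible peak.

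RPL10A, a protein of the ribosome's L1 stalk, was the only member with at least 3 replicate 1 clusters that had none below 0. From 5′ to 3′ the log2 folds of its 7 clusters were 0.70, 2.94, 4.01, 5.58, 2.94, 3.23 and 3.15, with a median of 3.15. Its 8 replicate 2 clusters held 30, 41, 20, 39, 25, 55, 26 and 19 reads. The peaks on the plus strand at chr6:35436963-35437029 (hg19, log2 fold 3.25) and chr6:35437054-35437089 (fold 5.37, the highest of the members) coincide with the replicate 1 clusters at 4.01 and 5.58. In the study's annotation both are intronic, close to the splice sites. The peak at chr6:35437839-35437854 (fold 3.84) holds the last replicate 2 cluster of the gene with 19 reads, and the replicate 1 cluster over it (fold 4.17) runs past the end of the span. The study's annotation places this peak next to the microRNA gene hsa-mir-7111, while replicate 2 gives its cluster to RPL10A. The mature RNAs of that microRNA gene are shown because the peak carries its name, with the seed (bases 2 to 8) in capitals.
hsa-miR-7111-5p: uGGGGGAGgaaggacaggccau
hsa-miR-7111-3p: aUCCUCUCuucccuccucccag

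RPL5 and RPS3A were among the members with many clusters past the threshold. RPL5, which with RPL11 and the 5S RNA forms a particle that holds back MDM2, had 12 of 24 clusters past the threshold and 6 below 0 (median 2.92). Of the 12, 2 overlapped a replicate 2 cluster, and 1 peak was called, on the plus strand at chr1:93297956-93297984 (fold 4.28, 19 reads). RPS3A, a small subunit protein, had 8 of 15 clusters past the threshold and only 1 below 0, at −0.75, and its median of 3.69 was the highest of the members. Its peak at chr4:152020907-152020961 on the plus strand (fold 4.70, 11 reads) lies in the 5′ untranslated region by the study's annotation, and its replicate 1 fold there was 5.36. RPS3A had 105 reads in replicate 2, in 12 clusters of 6 to 13.

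**Figure D3:**
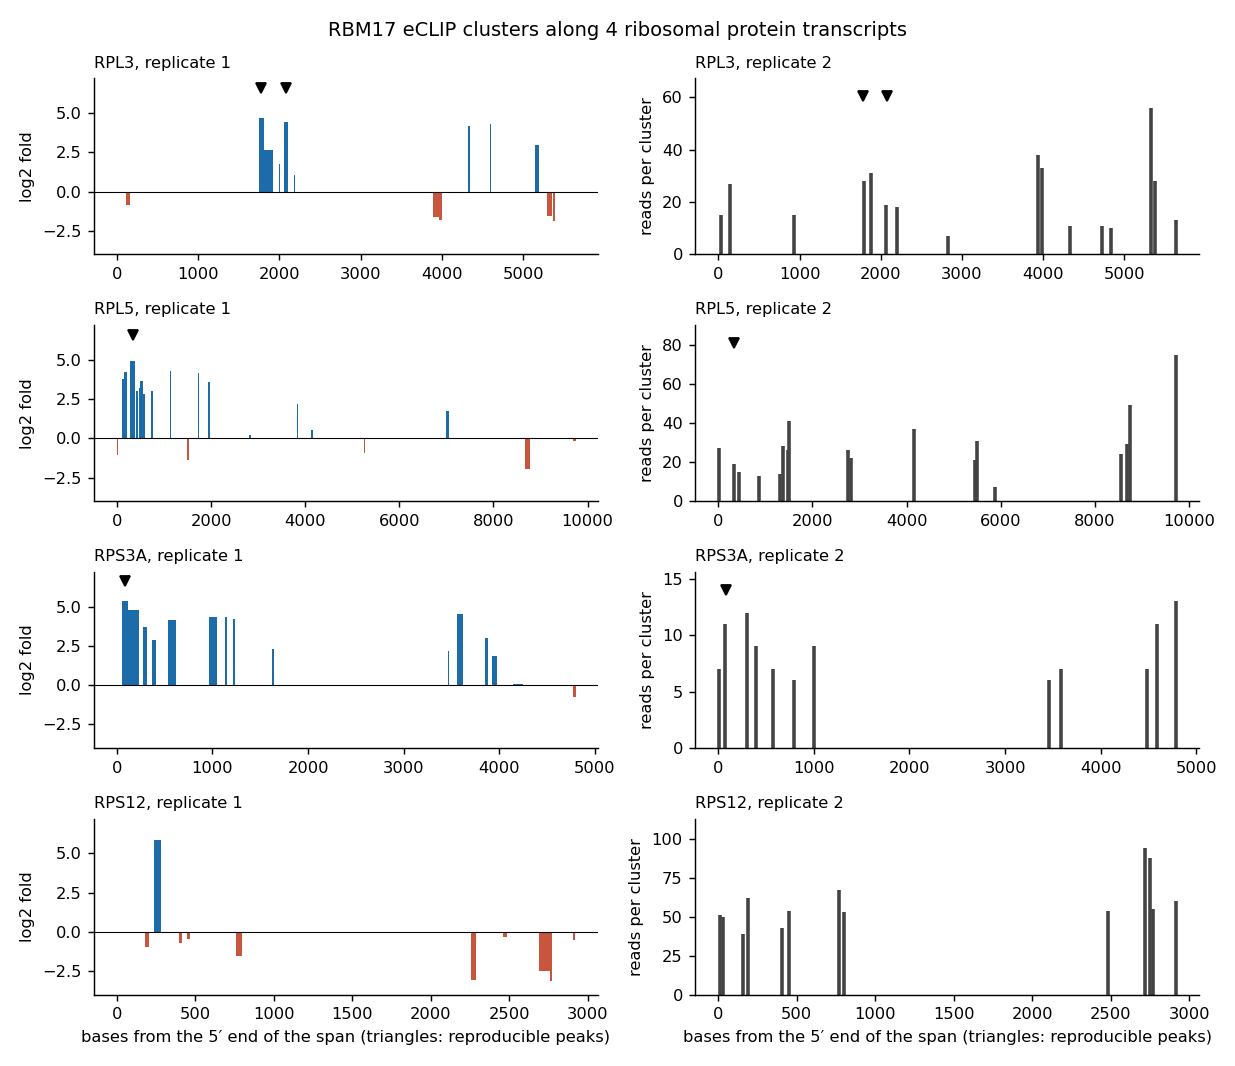
Replicate 1 log2 fold over input (left, bars at each cluster, blue above and red below 0) and replicate 2 reads per cluster (right, lines at each cluster) by distance in bases from the 5′ end of the span, for RPL3, RPL5, RPS3A and RPS12. Triangles mark reproducible peaks, and narrow clusters are drawn wider than they are. In RPS12 the clusters with the most reads sit over red bars, and its cluster at 5.83 has no reads in a replicate 2 cluster over it.

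The remaining members with a peak had 1 or 2. RPL3, which lies near the peptidyl transferase centre, had peaks on the minus strand at chr22:39713107-39713159 (fold 4.63, 19 reads) and chr22:39713404-39713469 (fold 4.97, 28 reads), with 4 of 13 clusters past the threshold and 5 below 0. RPL7A had 5 of 7 clusters below 0 and its peak at chr9:136217245-136217302 on the plus strand (fold 3.70, 48 reads). The RPL7A median of −1.14 was thus the lowest among members with a peak. RPS6, whose protein is the substrate of the S6 kinases, had 5 of 18 clusters past the threshold, of which 2 overlapped a replicate 2 cluster. Its peak was at chr9:19379952-19380033 on the minus strand (fold 3.78, 11 reads).

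RPL6 (chr12:112847053-112847131, minus strand, fold 3.88, 17 reads), RPS26 (chr12:56436884-56436948, plus strand, fold 3.84, 12 reads) and RPL41 (chr12:56510792-56510817, plus strand, fold 3.96, 30 reads) had medians above 0, at 2.69, 2.98 and 0.70. RPS13 (chr11:17099068-17099104, minus strand, fold 3.41, 17 reads) had a median of −0.395. RPS25 (chr11:118888257-118888267, minus strand, fold 3.32, 25 reads) had a median of 0.14, and the replicate 1 cluster with the larger −log10 p over its peak was at a fold just short of 3. By the study's annotation the peaks in RPL6 and RPS6 lie in 5′ untranslated regions, and those in RPL41, RPL5 and RPS26 in introns. Those in RPL7A, RPS13 and RPS25, and one in RPL3, lie at or beside splice sites, while the other in RPL3 is intronic.

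In position within the span, 5 of the 16 member peaks (31.2%) lay in the first of 10 equal parts, against 22.1% of the 846 peaks in spans of all genes. Of the 16 peaks, 11 were the same interval as a replicate 1 cluster.

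Several members were far past the threshold in replicate 1 without a reproducible peak. RPS7, a small subunit protein, had 10 of 21 clusters past it, among them the folds 5.74, 5.40, 5.32 and 4.68, and 3 of the 10 overlapped a replicate 2 cluster. It had 137 reads in clusters of 5 to 22. RPL18 had 9 of 20 past it, of which 1 overlapped a replicate 2 cluster. RPS12 held a cluster at a fold of 5.83 and RPS28 one at 5.48. Neither of these overlapped a replicate 2 cluster.

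Among the members with the most reads were RPL10 (801 reads, median −0.23, 14 of 24 clusters below 0), RPL13A (774 reads, −1.04, 12 of 15), RPS12 (770 reads, −0.715, 10 of 11) and RPL4 (702 reads, −0.78, 17 of 23). Per 100 bases of cluster, RPS12 had 275 reads and RPL13A 229, the highest 2 of the members, and RPL4 had 76.5. Other members with many reads had high medians, such as RPL5 (504 reads, 2.92) and RPL3 (360 reads, 1.77). Over the 76 members the correlation of reads with the median fold was −0.39 (Spearman's rho), against −0.085 over the 6439 genes. This is across genes of the same 2 libraries, with reads and folds from different replicates, and genes are not independent replicates.

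**Figure D4:**
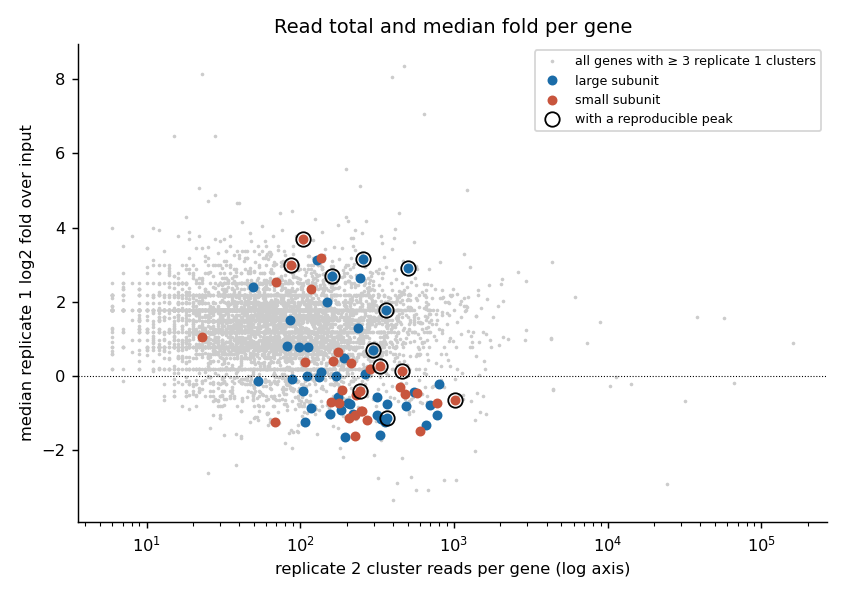
Replicate 2 cluster reads per gene (log axis) and median replicate 1 log2 fold over input, for all 6439 genes with at least 3 replicate 1 clusters (grey) and the 76 such members (blue, large subunit; red, small subunit). Rings mark the 12 members with a reproducible peak. The members lie to the right of most genes and many lie below 0, while 9 of the 12 ringed genes lie above 0.

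Among the lowest medians of members with at least 5 clusters were those of RPL36 (−1.65, 4 of 5 clusters below 0), RPLP0 (−1.60, 15 of 18), RPS2 (−1.47, 13 of 16) and RPLP2 (−1.33, 10 of 10). RPLP0, RPLP1 and RPLP2 form the P stalk, which recruits elongation factors, and RPLP1 was also low (−1.23, 7 of 8 clusters below 0). No P stalk gene had a cluster past the threshold, though they had 332, 356 and 655 reads. In 7 members with at least 3 clusters every cluster was below 0, among them RPL14, RPL23, RPL38, RPLP2, RPS18 and RPS21.

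Among members, replicate 2 clusters over replicate 1 clusters below 0 had the most reads. Of the 513 member clusters below 0, 476 (92.8%) overlapped a replicate 2 cluster, against 42.9% of all clusters below 0. Of the 111 past the threshold, 35 did (31.5%), against 39.4% over all genes. Among genes with at least 100 reads, these shares were 93.6% and 31.8% in members, against 45.5% and 42.0% in all such genes. Counted from replicate 2, 58.5% of the member clusters lay over replicate 1 clusters below 0. They held 74.1% of the member reads (median 26 reads a cluster). Those over a replicate 1 fold of 3 or more were 4.85% of the member clusters and held 3.28% of the reads (median 12 reads). Over all genes, 5.74% of clusters lay over those below 0 and held 19.7% of reads (median 9). The 3.19% over a fold of 3 or more held 3.70% (median 9). In number of clusters per gene the members stood at median percentiles of 65.8 in replicate 1 and 63.8 in replicate 2. Replicate 1 clusters were counted within replicate 2 spans, so these percentiles are not independent.

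Along the span, which includes introns, the share of member clusters below 0 was highest in the last 2 of 10 equal parts. It was 62.6% in the ninth part, and in the parts before it lay between 47.2% and 55.5% without order. In the last of 10 equal parts of the span, 97 of 123 member clusters were below 0 (78.9%), against 18.8% over all genes, and 4 passed the threshold (3.25%, against 4.30%). In the first part, 28 of 137 passed (20.4%, against 8.12%) and 76 were below 0 (55.5%, against 11.3%). The replicate 2 reads of members were highest at both ends, 18.6% in the first part and 19.3% in the last, and lowest in the seventh, 4.57%. A span starts and ends with a replicate 2 cluster, so clusters at both ends follow from its definition. Shares of reads over all genes were not computed, so this is not a read profile particular to these transcripts.

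**Figure D5:**
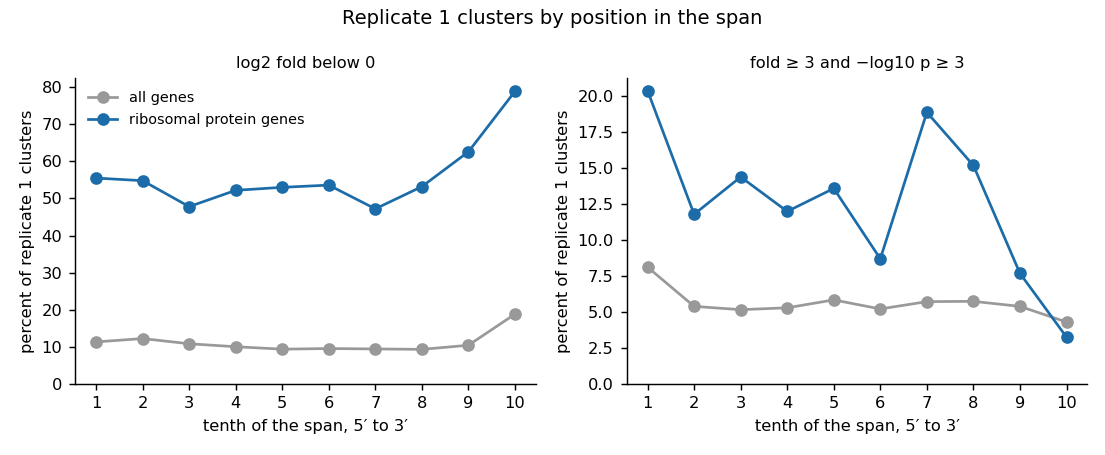
Percent of replicate 1 clusters with a log2 fold below 0 (left) and with a fold and a −log10 p of 3 or more (right) in each of 10 equal parts of the span, from 5′ to 3′, for ribosomal protein genes (blue) and all genes (grey). Below 0, ribosomal protein genes lie above all genes in every part and reach 78.9% in the last. Past the threshold they reach 20.4% in the first part and 3.25% in the last.

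By subunit, the values were close. The 47 large subunit genes had a median of −0.23 (exact interval −0.77 to 0.095) with 56.8% of clusters below 0 and 6 genes with a peak. For the 32 small subunit genes these were −0.395 (−0.715 to 0.35), 57.9% and 6 genes. The intervals overlap, and the difference was not tested.

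Of the members, 28 contain an annotated snoRNA gene on the same strand. Their median was −0.575 (exact interval −0.81 to −0.23) with 20 of 27 genes below 0, against 0.0013 (−0.70 to 0.35) and 24 of 49 for members without one. The snoRNA hosts had more reads, with a median of 338 against 176, so read depth and snoRNAs move together here and the part of each was not tested. Replicate 2 named 59 clusters for snoRNAs within the spans of 25 hosts. Of the 63 member replicate 1 clusters that overlapped one, 62 were below 0, and replicate 2 clusters of the hosts overlapping one held 16.2% of all member reads. RPSA, which is both a small subunit protein and a laminin receptor, had 149 of its 207 reads in 1 cluster over 2 clusters of a snoRNA, and its 7 folds had a median of −1.14. Without the clusters on snoRNAs, 54.1% of member clusters were below 0, against 57.3% with them. The median of the member medians was then −0.16 (exact interval −0.47 to 0.19), against −0.39. This left out only clusters over snoRNAs that had a replicate 2 cluster.

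Mutations in 17 of the members are known from Diamond-Blackfan anemia, a congenital failure of red cell production. In these 17, 94 of 206 clusters were below 0 (45.6%) and 42 passed the threshold (20.4%), against 57.3% and 12.4% over all members. RPL5, RPS7 and RPL18 held 31 of the 42, and the other 14 genes had 11 of 141 clusters past the threshold (7.80%) and 53.9% below 0. By gene, 8 of the 17 (47.1%) had a cluster past it, against 45.6% of all members. Their gene medians had a median of 0.38 (exact interval −0.74 to 2.54). RPS19, the gene most often mutated in the disease, had 8 of 12 clusters below 0 and none past the threshold (median −0.95, 248 reads). RPL11 had 3 of 12 past it at up to 3.44 (median 0.051), and RPS24 had none of 13 (median −0.31). RPL35A had a median of 2.00 and none past the threshold, with 9 of 21 below 0. The others with clusters past it were RPL5, RPL18, RPL35, RPS7, RPS26, RPS27 and RPS28. RPS10, RPS29, RPL15, RPL26, RPL27 and RPL31 had none, with medians from −1.25 in RPS29 to 0.82 in RPL26. Of the list, RPL5 and RPS26 had a peak (11.8%, interval 1.46 to 36.4), against 15.2% of all members.

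Paralogs can share reads, and how reads that map to more than 1 copy were placed is not given in the sources used here. RPS27 had 70 reads and RPS27L, a p53-responsive relative, 23, with medians of 2.54 and 1.04 and 1 cluster each past the threshold at 4.19. RPL10 and RPL10A, which are not close relatives despite their names, had 801 and 255 reads with medians of −0.23 and 3.15. RPL36A had 132 reads and a median of −0.014, with no cluster past the threshold. RPL39L had 1 replicate 2 cluster of 4 reads, against 76 reads for RPL39. FAU, whose small subunit protein is made fused to a ubiquitin-like one, had 10 reads and 1 replicate 1 cluster at a fold of 2.51.

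Other transcripts of the translation machinery gave the following values. Of 24 other TOP mRNAs, which encode translation factors and related proteins, 4 had a peak (16.7%), against 3.94% of all genes and 16.1% of those with at least 100 reads, and 193 of 555 clusters were below 0 (34.8%), with a median of gene medians of 0.81. EEF1A1, the factor that brings tRNA to the ribosome, had 15 of 32 clusters past the threshold, 16 below 0 and 3 peaks. HNRNPA1 had 8 peaks, with 18 of 52 clusters past the threshold, NPM1 had 2 and EIF3G 1. RACK1, a protein of the small subunit, had a median of −1.01 (12 of 15 clusters below 0). PABPC1, which binds poly(A) tails, had −0.31 (22 of 35).

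Of 67 mitochondrial ribosomal protein genes with a replicate 2 cluster, none had a peak (0 of 67, upper bound 5.36%, against 3.94% of all genes), 3 had a cluster past the threshold (4.48%, against 15.7%), and 21.1% of 323 clusters were below 0. They had a median of 18 reads, a depth at which a peak may not be detectable. Of 57 ribosome biogenesis factors, 4 had a peak (7.02%, interval 1.95 to 17), namely DKC1, NCL, NOP56 and TSR1, and 10.8% of 770 clusters were below 0, with a median of gene medians of 1.62. The share of clusters below 0 thus ran from 57.3% in the ribosomal proteins over 34.8% in other TOP mRNAs to 21.1% in mitochondrial ribosomal proteins and 10.8% in biogenesis factors, beside 11.3% over all genes. The mean RNA levels of these lists were not measured here, and their part in these shares was not tested.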

How the data were processed

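RBM17 eCLIP was measured in 2 replicates and 1 size-matched input of K562 cells. The authors processed the reads with the eCLIP pipeline (cutadapt and STAR per the submitters' processing notes). For replicate 1 they deposited a log2 fold and a −log10 p over the input for each cluster, and the −log10 p is 0 for every cluster with a fold below 0. For replicate 2 the deposited values are the p-value of the peak caller and, in the cluster name, a read count and an Ensembl gene. For reproducible peaks the authors deposited 1 log2 fold and 1 −log10 p for both replicates. Positions reach 249211724 on chromosome 1, beyond its 248956422 bases in hg38, and are given in hg19 without conversion. No input file was analysed here.

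Replicate 1 clusters and peaks were given to a gene when they lay wholly within the span of its replicate 2 clusters on the same strand (bedtools 2.31.1), which held for 118204 clusters (86.2%). A cluster may lie in the spans of more than 1 gene. Symbols and snoRNA genes came from GENCODE v44, in which 10423 of the 10872 genes were found. Words for the region of a peak are those of the study's peak annotation. Computation used Python 3.11.15, pandas 2.3.3, numpy 2.4.6, scipy 1.17.1 and matplotlib 3.10.9. The assignment and the intervals were tested on simulated data.

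The members and lists were chosen with earlier results of these data known. Named were members with a peak, the 5 with the most reads, the 5 with the highest fold at a −log10 p of at least 3, the 5 with the lowest median among those with at least 5 clusters, the Diamond-Blackfan list, paralog pairs, RPSA, FAU and the P stalk. Other members are named as just past or short of the threshold, as having many clusters past it (RPS7, RPL18) or only clusters below 0; these were chosen after their values were seen. Alternatives were other overlaps, thresholds and minimums, genes with at least 100 reads, and leaving out a replicate. Some genes that this rule or a list names are not reported here by name; they stay in the counts.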

Additional observations from a re-analysis of the deposited data

How the results depend on the processing

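Of 34 alternative values, 27 stayed within the interval of the main value, and for median folds also kept its sign. This compares member values only, not their distance from all genes. Among genes with at least 100 reads the member shares count as kept, though they were near those of all such genes. They were 16.7% against 16.1% with a peak, and 50.0% against 44.1% with a cluster past the threshold. The share of members with a peak was 6.33% with peaks at a log2 fold of at least 4 and also 6.33% with a −log10 p of at least 5. The share with a cluster past the threshold was 31.6% at a fold of at least 4. The share of clusters below 0 was 53.8% outside the last of the 10 parts of the span, an alternative added after seeing the data, as were that without snoRNA clusters and those on the subunits, snoRNA hosts and the last part. The share of Diamond-Blackfan clusters past the threshold was 7.80% without RPL5, RPS7 and RPL18, also added after seeing the data. The median read percentile was 96.0 with clusters at a caller p of at most 1e-10. The median of gene medians reversed to 3.64 with clusters at a −log10 p of at least 3, against 3.23 over all genes, since every cluster below 0 has a −log10 p of 0. The cluster number percentile was 63.8 without the replicate 1 counts and 65.8 without the replicate 2 counts. The value of 65.8 still counts replicate 1 clusters within replicate 2 spans, among genes with a replicate 2 cluster. It is therefore not independent of replicate 2, and the closeness of these values does not show that the replicates agree. No paired analysis was possible because the groups are RBM17 eCLIP and 1 input sample with no values analysed here, and the only quantity both replicates share is the number and position of clusters. The unknown depth of replicate 1 limits the precision of its folds, and the 3 members with fewer than 3 replicate 1 clusters have no gene median.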

Other observations

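Pseudogene copies of ribosomal protein genes were also looked up. Of 1515 annotated pseudogenes of these genes, 5 had a replicate 2 cluster, with 55 reads in all. The share over all annotated pseudogenes was not computed, and the placement of reads that map to more than 1 copy is not given. The count is therefore not a measure of RBM17 binding to these copies. RPL32P3 had 23 reads in 5 clusters and 4 replicate 1 clusters with a median log2 fold of 0.82. RPS2P46 had 15 reads and 1 replicate 1 cluster at −1.95, and RPL10P3, RPS26P19 and RPS28P7 had 9, 5 and 3 reads and no replicate 1 cluster. Reads from a copy and its parent gene cannot be told apart where their sequences are the same.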
